A study of Mus musculus with 10 samples.

Results

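The 5 genes of the interleukin 12 family of subunits were followed in mouse bone marrow cultures given adiponectin. Members were the genes Il12a, Il12b, Il23a, Il27 and Ebi3, each taken from the probe set that carried that gene as its only symbol. All 5 were measured, each by 1 probe set, out of 19938 genes with a probe set of their own on the array. Marrow from the long bones of male Swiss mice aged 4 to 6 weeks was cultured in medium with fetal calf serum and calcitriol, the active form of vitamin D, so all cultures carried calcitriol. The treated cultures received recombinant mouse adiponectin, a hormone of fat cells, at 5 µg/ml and were taken at 4, 10, 24, 72 and 120 h. The control cultures, labelled as vehicle or untreated, were taken at the same times. With 1 array per group and time there were 10 arrays in 5 pairs. The series title names contamination with lipopolysaccharide, the bacterial endotoxin sensed by Toll-like receptor 4, so the comparison asks which subunits were higher in the cultures given adiponectin and when. No group separated adiponectin from lipopolysaccharide, so their parts in any difference cannot be told apart and were not tested. Separate animals are not stated for the cultures. The p-values of the treatment effect rest on the spread of the differences over the 5 pairs, moderated in limma by the spread of the other genes. The spread over pairs holds any change of the effect with time as well as variation between cultures, some of which may be technical. For courses over time the p-values rest on scatter within each group, without pairing. Values are log2 array values, so a difference of 1 is 2-fold.

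Cytokines of this family are pairs of a helical chain and a receptor-like chain, made mainly by activated macrophages and dendritic cells. Il12a encodes p35 and Il12b encodes p40, which together form IL-12. The product of Il23a, p19, pairs with p40 to form IL-23, the product of Il27, p28, pairs with that of Ebi3 to form IL-27, and p35 paired with the product of Ebi3 is known as IL-35. IL-12 drives interferon gamma production by T cells and NK cells, IL-23 sustains T cells that make IL-17, and IL-27 has both activating and restraining effects on T cells. Bacterial products induce the p40 gene through NF-kB, C/EBP and interferon regulatory factors.

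The promoters of Il12b and Ebi3 are shown because these genes were the members whose mean difference passed the test below. RefSeq (GRCm38.p6) windows run from 250 bases before to 50 bases after the start site and are printed 5′ to 3′ on the plus strand, which is the strand of both genes, in lower case. Capitals mark letters that matched a searched motif. The Il12b window is chr11:44399813-44400112 and the Ebi3 window is chr17:55952373-55952672.
Il12b: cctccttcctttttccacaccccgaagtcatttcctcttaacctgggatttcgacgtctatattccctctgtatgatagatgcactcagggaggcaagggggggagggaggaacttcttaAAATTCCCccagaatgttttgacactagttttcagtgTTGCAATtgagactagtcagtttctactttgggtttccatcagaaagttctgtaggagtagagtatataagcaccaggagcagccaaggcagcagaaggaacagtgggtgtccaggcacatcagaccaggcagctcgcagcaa
Ebi3: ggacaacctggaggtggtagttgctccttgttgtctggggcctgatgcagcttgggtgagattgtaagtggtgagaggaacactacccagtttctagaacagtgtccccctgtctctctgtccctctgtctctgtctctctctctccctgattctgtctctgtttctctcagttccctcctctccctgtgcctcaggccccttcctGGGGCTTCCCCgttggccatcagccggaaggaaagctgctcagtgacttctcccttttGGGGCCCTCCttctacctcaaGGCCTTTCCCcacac

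The motifs searched on both strands were GGG and CC with any 5 bases between them, and GGGAATTT, for NF-kB, TTGCAAT for C/EBP, GAAA repeated after any 2 bases for the interferon-stimulated response element and TGANTCA for AP-1, chosen with the Il12b promoter in view. With the start site counted as 0, the Il12b window held GGGAATTT on the opposite strand at -130 to -123 and TTGCAAT at -93 to -87. Of 32851 windows of this length, 0.947% held GGGAATTT and 2.22% held TTGCAAT. The Ebi3 window held the spaced GGG and CC motif at -44 to -34, where overlapping matches on both strands share letters, and again at 14 to 23 and at 35 to 44. That motif is common, since 50.8% of windows held it. Of the 2 Il12a windows, 1 held TTGCAAT and the other held the spaced motif. None of these 4 member windows held the response element or AP-1 letters, which 3.44% and 7.81% of all windows held. A match is a run of letters and not a shown binding site. The promoters of Il23a and Il27 are not shown.

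Il12b showed the largest rise of the 5 members. Its values in adiponectin cultures were 8.55, 8.32, 8.84, 7.88 and 7.67 at 4, 10, 24, 72 and 120 h, against 7.32, 7.23, 7.24, 7.65 and 7.44 in control cultures at those times. Every adiponectin culture lay above its own control and, by 0.025 at the closest, above every control of any time; 1.53% of all genes were higher without overlap in this way and 0.296% were lower. The difference was 1.23 at 4 h (2.34-fold), 1.09 at 10 h (2.13-fold) and 1.61 at 24 h (3.04-fold), then 0.23 at both 72 h and 120 h (1.17-fold and 1.18-fold). At 24 h 0.396% of genes had a larger rise, compared with 9.76% at 120 h. Over the 5 pairs Il12b rose by 0.88 ± 0.62 (mean ± SD over 5 pairs, all higher; 1.84-fold; adjusted p = 0.0290 by limma), with a 95% interval of 0.47 to 1.28. With only 4, 10 and 24 h the difference was 1.31 (limma adjusted p = 0.00197) and with only 72 and 120 h it was 0.23 (limma adjusted p = 0.201). That split, also used for other genes below, falls where the Il12b difference dropped. Its p-values are thus a description and no added support. The call ended when the cultures of 4 h (limma adjusted p = 0.110), 10 h (0.115) or 24 h (0.130) were left out.

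Ebi3, the receptor-like chain of IL-27 and IL-35, also rose, by less, and was higher at every time. It stood at 11.32, 11.15, 11.64, 11.04 and 11.49 in adiponectin cultures, against 10.91, 10.86, 11.22, 10.69 and 10.61 in control cultures, from 4 to 120 h. Each adiponectin culture lay above its own control, while the groups overlapped across times. The difference was 0.41, 0.29, 0.42, 0.35 and 0.88, so that the widest gap was at 120 h (1.84-fold), the time at which that of Il12b was 0.23. Over the 5 pairs the rise was 0.47 ± 0.23 (SD over 5 pairs, all higher; 1.38-fold; adjusted p = 0.0225 by limma), with a 95% interval of 0.26 to 0.67. Of all 19938 genes, 2.05% rose and 0.371% fell in this test, against 2 of 5 members that rose and 0 that fell. The median difference was 0.26 over the 5 members and 0.01 over all genes, and in 5 of 5 pairs 6.32% of genes were higher and 4.4% were lower. The Ebi3 call was lost without the 4 h pair (limma adjusted p = 0.0564), the 24 h pair (0.0829) or the 120 h pair (0.0520). Without 120 h its difference was 0.37, and with only 72 and 120 h it was 0.61 (limma adjusted p = 0.0304; 2 pairs), a test in which 2.41% of genes rose and 0.923% fell. At 4, 10 and 24 h alone 1.17% rose and 0.216% fell.

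**Figure D1:**
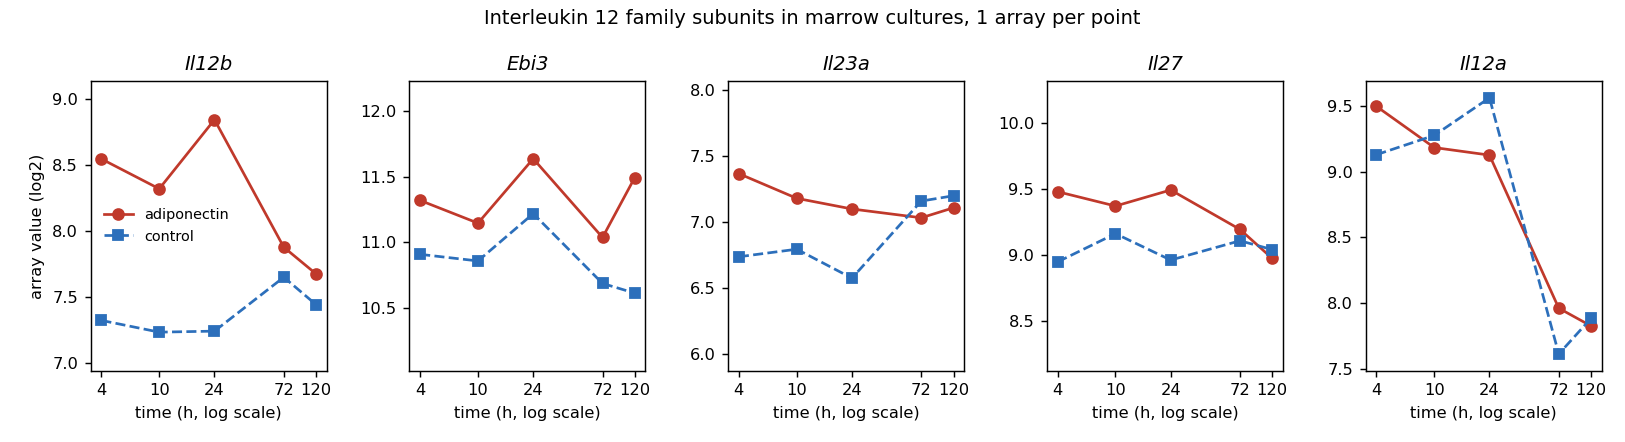
Array values (log2) of the 5 subunits against time in hours on a log scale, with 1 array per point, circles for adiponectin cultures and squares for control cultures, and axes of equal span. Il12b and Ebi3 were above their controls at all 5 times, and Il12a stood lower from 72 h than up to 24 h in both groups.

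Il23a, the IL-23-specific chain, did not pass the test over all times (0.26 ± 0.35; limma adjusted p = 0.476). Its values were 7.37, 7.18, 7.10, 7.03 and 7.11 in adiponectin cultures and 6.74, 6.79, 6.58, 7.16 and 7.20 in control cultures. At 4, 10 and 24 h the adiponectin culture was the higher, by 0.63, 0.39 and 0.53, and at 72 and 120 h it was the lower, by -0.13 and -0.09. At 4 h 1.60% of genes had a larger rise. With only 4, 10 and 24 h, by the split used for Il12b, the difference was 0.51 and did not pass (limma adjusted p = 0.0626). The array values of Il23a were low enough to be left out by a filter on dim genes, and signal over background is not known, which leaves a small change of the gene possible.

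Il27, the p28 chain, had differences that were larger on average up to 24 h than later, as for Il23a. It stood at 9.48, 9.37, 9.49, 9.19 and 8.97 in adiponectin cultures, against 8.95, 9.16, 8.96, 9.11 and 9.04 in control cultures. The difference was 0.53 at 4 h, 0.21 at 10 h, 0.53 at 24 h, 0.09 at 72 h and -0.07 at 120 h. The adiponectin culture was higher in 4 of 5 pairs, and the mean difference of 0.26 ± 0.27 did not pass (limma adjusted p = 0.351), nor did that of 4, 10 and 24 h alone (0.42; limma adjusted p = 0.160). At 4 h and 24 h, 2.29% and 3.02% of genes had a larger rise.

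Il12a, the p35 chain of IL-12, showed no direction with treatment. Its values were 9.50, 9.18, 9.13, 7.96 and 7.83 in adiponectin cultures and 9.13, 9.27, 9.56, 7.62 and 7.89 in control cultures. The differences of 0.37, -0.09, -0.43, 0.35 and -0.06 averaged 0.03 ± 0.34 (limma adjusted p = 0.977; higher in 2 of 5 pairs), with a 95% interval of -0.23 to 0.28. A rise of the size seen for Il12b lay outside that interval.

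At single times, where 1 array stood for each group and nothing could be tested, Il12b was the only member at least 2-fold higher, at 4, 10 and 24 h. That fold was reached by 0.727%, 0.893% and 0.853% of all genes at those times, and by 0.547% at 72 h and 0.752% at 120 h. No member was at least 2-fold lower at any time, where 0.0301% (120 h) to 0.226% (24 h) of genes were. All 5 members were higher at 4 h, 4 of 5 at 10 h and at 24 h (Il12a was the exception), 4 of 5 at 72 h (all but Il23a) and 2 of 5 at 120 h. The median difference over all genes was 0.040, 0.072, 0.012, -0.010 and -0.031 from 4 to 120 h, so most genes were also higher up to 24 h.

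**Figure D2:**
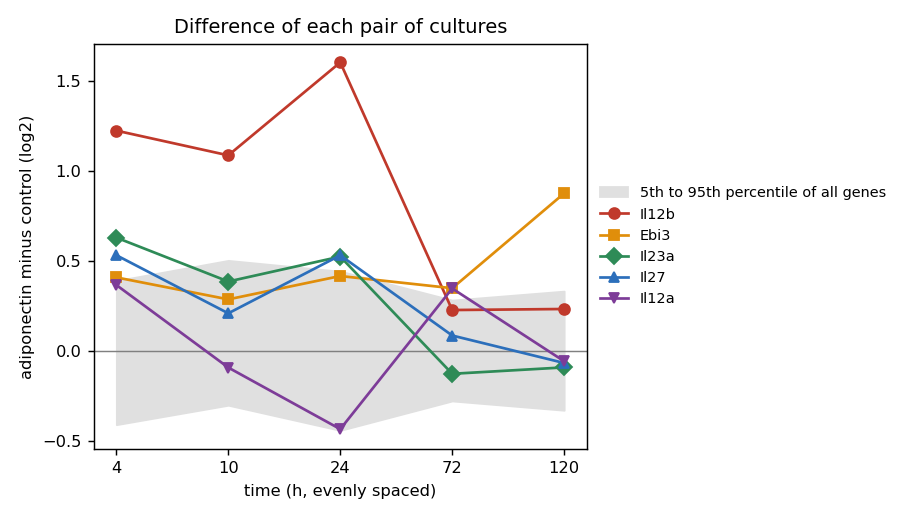
Adiponectin minus control (log2) for each subunit at each time in hours (evenly spaced), 1 pair of cultures per point, with the 5th to 95th percentile of all 19938 genes in grey. Il12b lay at 1.09 to 1.61 up to 24 h and at 0.23 afterwards, while Ebi3 reached 0.88 at 120 h.

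The partners of each cytokine were then compared within pairs of cultures. The rise of Il12b exceeded that of Il12a by 0.85 ± 0.83 (SD, n = 5 pairs), in 4 of 5 pairs, and that of Il23a by 0.61 ± 0.31, in 5 of 5 pairs. The rise of Ebi3 exceeded that of Il27 by 0.21 ± 0.44, in 3 of 5 pairs, and that of Il12a by 0.44 ± 0.44, in 5 of 5 pairs. Exact two-sided sign-flip permutation tests gave p = 0.125, 0.0625, 0.438 and 0.0625 in that order (0.167, 0.125, 0.438 and 0.125 adjusted over the 4 comparisons). Since 5 pairs cannot give a p below 0.0625, no such difference could pass.

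The smaller Il12b difference after 24 h did not pass a test across all genes. Change of the difference with each doubling of time was estimated at -0.23 ± 0.08 (SE) for Il12b, -0.16 ± 0.04 for Il23a, -0.10 ± 0.05 for Il27, -0.03 ± 0.07 for Il12a and 0.07 ± 0.05 for Ebi3. After adjustment none passed (limma adjusted p = 0.499, 0.495, 0.505, 0.892 and 0.583). With 3 residual degrees of freedom 0% of the 19938 genes passed in either direction in limma, while 1339 genes had a negative and 620 a positive change at an unadjusted p under 0.05. Unadjusted, p was 0.0166 for Il12b, 0.00573 for Il23a and 0.0474 for Il27. As 2 phases, the effect at 72 and 120 h minus that at 4 to 24 h was -1.08 for Il12b (limma adjusted p = 0.186), -0.62 for Il23a (0.327) and -0.42 for Il27 (0.344), and again 0% of genes passed.

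Over time Il12a had the widest range of the 5 members, 1.94, and it was low late in both groups. In adiponectin cultures it stood at 9.13 to 9.50 up to 24 h and at 7.83 to 7.96 from 72 h; in control cultures it stood at 9.13 to 9.56 and then at 7.62 to 7.89. The 4 late arrays lay below all 6 early arrays, as for 7.5% of genes, while 7.35% lay above in this way. A straight line on log2 hours fell by 0.36 per doubling in adiponectin cultures (SE 0.10; limma adjusted p = 0.0513) and 0.34 in control cultures (SE 0.10; limma adjusted p = 0.0593), short of the threshold in both, where 3.46% and 4.45% of genes fell and 4.15% and 4.64% rose. When the 2 late times were set against the 3 early ones, a contrast chosen after the values were seen, Il12a fell by 1.37 in adiponectin cultures (2.59-fold; limma adjusted p = 0.00149) and by 1.57 in control cultures (2.97-fold; limma adjusted p = 0.000550), where 3.88% and 5.87% of genes fell and 3.91% and 6.68% rose.

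By the same contrast Il12b fell by 0.80 in adiponectin cultures (1.74-fold; limma adjusted p = 0.0103) and was at 0.28 in control cultures (limma adjusted p = 0.212). Il23a was at -0.15 in adiponectin cultures (limma adjusted p = 0.540) and rose by 0.48 in control cultures (limma adjusted p = 0.0189). In adiponectin cultures Il23a thus stood at 7.03 to 7.37 at all times, while in control cultures it stood at 6.58 to 6.79 up to 24 h and at 7.16 and 7.20 later. Il27 was at -0.36 in adiponectin cultures (limma adjusted p = 0.0648) and 0.05 in control cultures (0.769), and Ebi3 at -0.10 (0.832) and -0.34 (0.207). On log2 hours none of the 5 slopes passed in either group.

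For each list of pathway genes the shares over all genes are the same, 2.05% rising and 0.371% falling, with a median difference of 0.01. Among the receptor chains, 1 of 5 rose and 0 fell, with a median difference of 0.11. Il23r, the IL-23-specific receptor chain, stood at 6.97, 7.26, 8.58, 7.11 and 7.35 in adiponectin cultures and 6.25, 6.68, 6.35, 6.36 and 6.62 in control cultures. The groups did not overlap, where 1.53% of all genes were higher without overlap and 0.296% were lower. The difference was 0.57 to 0.76 at 4 times and 2.23 at 24 h. It rose by 1.00 ± 0.69 (SD, n = 5 pairs; limma adjusted p = 0.0239), although limma adjusted p was 0.129 with an intensity trend and robust prior, 0.0530 after repeated quantile normalization and 0.0501 without the 120 h pair. Like Il23a, Il23r was left out by the filter on dim genes. Il12rb1, the chain shared by the IL-12 and IL-23 receptors, was higher in 5 of 5 pairs without passing (0.33 ± 0.18; limma adjusted p = 0.0822). Il6st, the gp130 chain used by IL-27, was at -0.18 ± 0.15 (0.460), Il12rb2 at 0.11 ± 0.27 and Il27ra at 0.02 ± 0.09.

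Of 5 measured Jak and Stat genes downstream of these receptors, 1 rose and 0 fell (median 0.27). Jak2, the kinase bound to the IL-12 and IL-23 receptors, rose by 0.42 ± 0.15 (limma adjusted p = 0.0165), a call lost without the 4 h pair (0.0520) or the 10 h pair (0.0600). Stat4, which carries the IL-12 signal, differed by -0.20, 0.25, 0.79, 0.56 and 1.19 from 4 to 120 h. Its mean of 0.52 ± 0.53 did not pass (limma adjusted p = 0.179), although it did without the 4 h pair (0.0263). Stat4 was lower at 120 h than at 4 h in both groups, at 10.02 and then 8.67 in adiponectin cultures and 10.22 and then 7.48 in control cultures. Tyk2, the partner of Jak2, was at 0.27 ± 0.16 (0.143).

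Of 14 measured receptors and transcription factors that induce the subunits, 3 rose and 0 fell (median 0.22). Irf1, which binds the Il12a and Il12b promoters, rose by 0.79 ± 0.26 (limma adjusted p = 0.000968) and differed most at 4 h. Cebpb, the gene of a C/EBP factor, rose by 0.38 ± 0.18 (limma adjusted p = 0.0399), and Myd88, the Toll-like receptor adaptor, by 0.32 ± 0.10 (0.0483). Both calls were lost in 5 of 5 fits that left out 1 time, with limma adjusted p up to 0.119 for Cebpb and 0.141 for Myd88, after centring arrays on their medians (0.0651 and 0.0715) and after repeated quantile normalization (0.0881 and 0.0524). Cd40, a receptor through which T cells raise IL-12 production, ran at 2.06, 1.23, 0.90, 0.06 and 0.15 from 4 to 120 h, large up to 24 h and small later as for Il12b, and its mean of 0.88 ± 0.82 did not pass (limma adjusted p = 0.101), although it did without the 72 h pair (0.0181). The NF-kB subunit gene Relb ran at 0.88, 0.61, 0.36, 0.12 and 0.14 (mean 0.42 ± 0.33; limma adjusted p = 0.0966).

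Of 11 genes listed as inhibitors of subunit expression or signalling, not all of which act only as inhibitors, 3 rose and 0 fell (median 0.34). Il10, the cytokine that holds down IL-12 production, rose by 0.89 ± 0.45 (limma adjusted p = 0.00534), with differences of 0.41, 0.59, 1.49, 0.74 and 1.21. Irak3, an inhibitory kinase of Toll-like receptor signalling, rose by 0.81 ± 0.05 (limma adjusted p = 5.95e-05), nearly the same amount at every time. Socs1, which blocks Jak signalling, rose by 0.78 ± 0.52 (limma adjusted p = 0.0251) with 1.39, 0.82, 1.15, 0.33 and 0.18 from 4 to 120 h. That call was lost without the 4 h pair (0.0734), the 10 h pair (0.0871) or the 24 h pair (0.147), and after repeated quantile normalization (0.0631). Tnfaip3, at 0.41 ± 0.42 (limma adjusted p = 0.226), did not pass. Nor did Nfkbiz, at 0.41 ± 0.33 (limma adjusted p = 0.113), whose product is not a plain inhibitor of these subunits.

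Of 14 measured genes that IL-12, IL-23 or IL-27 induce directly or through interferon gamma, 4 rose and 0 fell (median 0.22). Those that rose are also induced by other inflammatory signals: the chemokine genes Cxcl9 (2.79 ± 0.81; limma adjusted p = 4.94e-05) and Cxcl10 (2.74 ± 0.96; 0.000180), Cd274, which encodes PD-L1 (1.36 ± 0.36; 7.67e-05), and Il18, whose product acts together with IL-12 (0.89 ± 0.52; 0.0117). With an intensity trend and robust prior Cxcl10 did not pass (limma adjusted p = 0.0556). The Il18 call was lost without the 10 h pair (limma adjusted p = 0.0503), the 24 h pair (0.0802) or the 120 h pair (0.0513). Ifng, the main product of IL-12-stimulated cells, was at 0.23 ± 0.20 (limma adjusted p = 0.312), and its largest difference was 0.57 at 24 h. Tbx21, the transcription factor of that response, was at 0.13 ± 0.19 (0.711), Il17a at 0.10 ± 0.19 and Il17f at 0.12 ± 0.20. Gzmb, a protease of cytotoxic granules, ran at 0.26, 0.00, 1.55, 2.82 and 2.89 and did not pass (1.51 ± 1.36; limma adjusted p = 0.0804), although it did without the 4 h pair (0.0476) or the 10 h pair (0.0291), and Prf1, which encodes perforin, was at 0.44 ± 0.47 (0.220). Among 6 measured ligands of the related IL-6 family, 1 rose and 0 fell (median 0.12). It was Il6 (0.80 ± 0.50; limma adjusted p = 0.0169), whose call was lost without the 24 h pair (0.0767) and which the filter on dim genes left out. Il11 was at 0.35 ± 0.50 (limma adjusted p = 0.468) and Osm at 0.14 ± 0.13 (0.646).

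**Figure D3:**
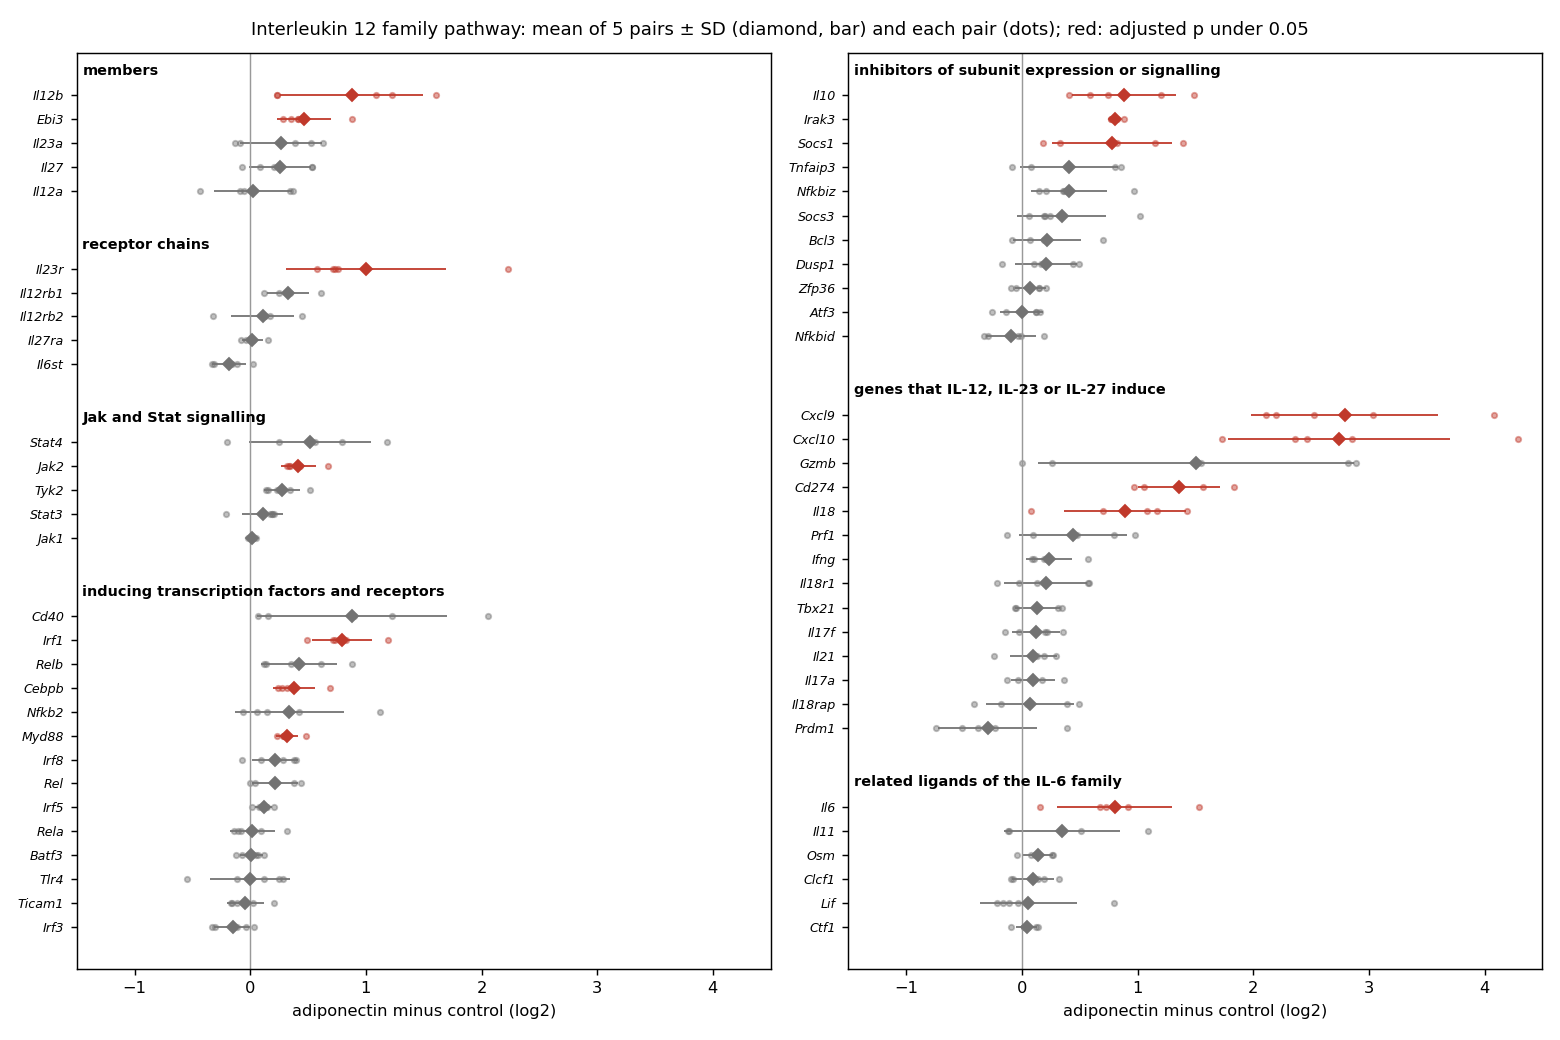
Adiponectin minus control (log2) for the subunits and the pathway genes, grouped by role, with the mean of 5 pairs (diamond), SD (bar) and each pair (dot); red marks genes with limma adjusted p under 0.05. Rises stand in every group of genes, the largest being those of Cxcl9 (2.79) and Cxcl10 (2.74), and 0 genes fell.

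The genes whose values over the 10 arrays were most like those of each subunit were picked by Pearson correlation among 2479 genes with a range of at least 1, as a description; the arrays compared share their treatments and times. For Il12b they were Rapgef2, an activator of Rap GTPases (r = 0.979), Gbp2b, an interferon-induced GTPase (0.962), Socs1 (0.946) and Nos2, the inducible nitric oxide synthase (0.945). Their mean differences were 0.78, 1.05, 0.78 and 0.97. For Ebi3 they were Gpr18 (r = 0.918), the close paralogues Pilrb2 (0.907) and Pilrb1 (0.901), whose probes may share transcripts, and A530040E14Rik (0.900). For Il12a they were Gfi1b, a transcription factor of the megakaryocyte and erythroid lineages (r = 0.989), Samd14 (0.988), Dusp10 (0.987) and Clu, which encodes clusterin (0.981), with mean treatment differences of -0.09, -0.11, 0.03 and 0.03. Il23a and Il27 ranged over less than 1 (0.79 and 0.55), and no likeness is given for them.

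**Figure D4:**
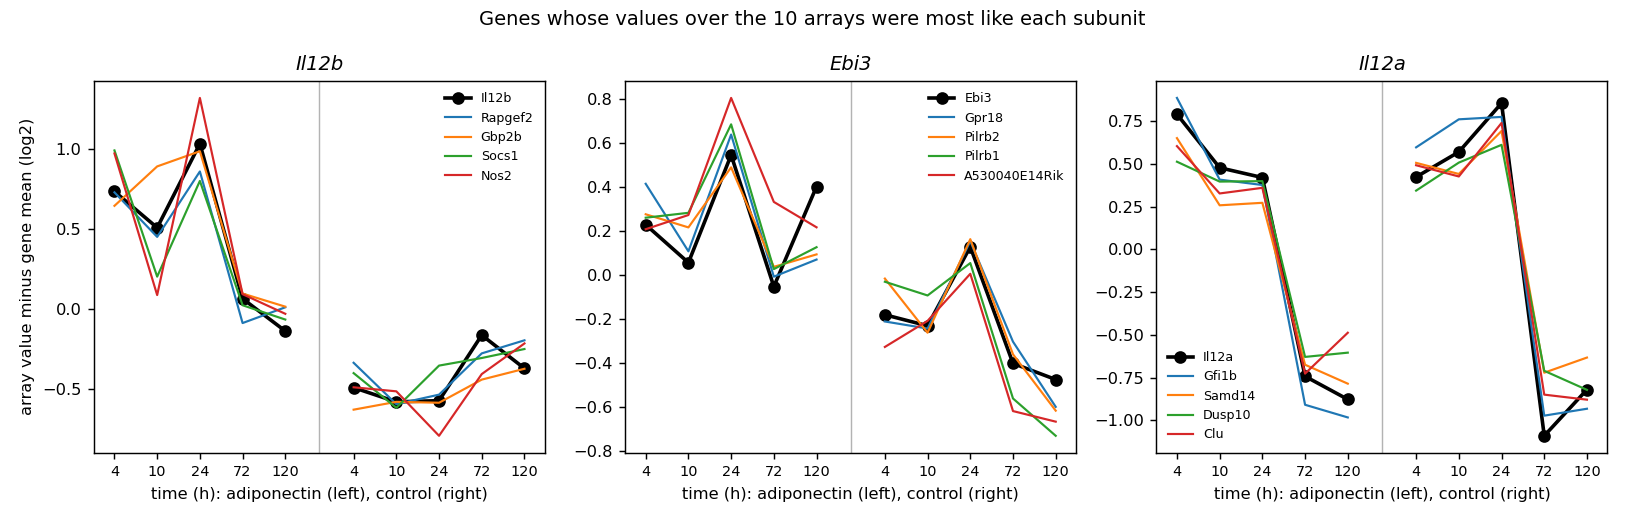
Array values minus each gene's mean (log2) for Il12b, Ebi3 and Il12a (black) and the 4 genes most like each, by time in hours, adiponectin cultures left of the line and control cultures right of it. Il12b and its 4 genes lay above their means in adiponectin cultures up to 24 h, whereas Il12a and its 4 genes did so up to 24 h in both groups.

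Marker lists were read beside these results because whole cultures were measured, in which fewer cells of a type and less RNA per cell cannot be told apart. For each marker list the shares over all genes in the treatment test are again 2.05% rising and 0.371% falling. Macrophage markers had a summed linear array value of 58960 to 71320 in adiponectin cultures and 56470 to 68300 in control cultures. Of these 8 markers 2 rose (Fcgr1 and Siglec1) and 0 fell, while Mrc1 was lower in 5 of 5 pairs without passing (-0.64 ± 0.56; limma adjusted p = 0.0903). Of 4 measured monocyte markers 3 rose, and the fourth, Ccr2, was lower in 4 of 5 pairs without passing (-0.40 ± 0.41; limma adjusted p = 0.229). The monocyte sum was 13230 to 20910 in adiponectin cultures and 8534 to 14360 in control cultures. Dendritic cell markers summed to 5320 to 12260 in adiponectin cultures and 10290 to 14630 in control cultures; on the log2 scale the sum differed by -0.15 at 4 h and -0.95 at 120 h. Of these 10 markers 1 fell, Cd209a, and 0 rose. H2-Ab1 was lower in 5 of 5 pairs without passing (-0.44 ± 0.37; limma adjusted p = 0.118). Ccr7 was higher in 5 of 5 pairs without passing (0.61 ± 0.61; limma adjusted p = 0.151). Itgax was at -0.65 ± 0.73 (limma adjusted p = 0.217), with -1.07, -1.28 and -1.20 at 24, 72 and 120 h. H2-Aa was at -0.55 ± 0.43 (limma adjusted p = 0.0703) and Clec9a at -0.18 ± 0.53 (0.832), each higher in 1 of 5 pairs. Flt3, Zbtb46, Xcr1 and Siglech were at 0.02, 0.01, 0.03 and -0.02 on average. The dendritic cell sum weighs most on its brightest markers, H2-Aa and H2-Ab1. Array values have no 0, so absence of a marker cannot be read from them. The part of these cells in the rises of Il12b and Ebi3 was not tested.

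On log2 hours, neutrophil markers fell in 5 of 8 cases in adiponectin cultures and in 6 of 8 in control cultures, where 3.46% and 4.45% of all genes fell. The neutrophil log2 sum was 16.1 at 4 h and 13.4 at 120 h in adiponectin cultures, and 16.5 and 13.3 in control cultures. The B cell sum was 13.9, 13.8, 13.9, 13.0 and 12.1 from 4 to 120 h in adiponectin cultures, against 13.9, 14.0, 13.8, 13.0 and 11.8 in control cultures. Il12a was low at the same late times as these markers, and their part in its fall was not tested. Osteoclast markers mark cells that form in marrow cultures with calcitriol. With time, 3 of 8 of them rose in adiponectin cultures and 7 of 8 in control cultures, where 4.15% and 4.64% of all genes rose. The osteoclast log2 sum differed between the groups by -0.09, 0.01, -0.24, -1.07 and -0.38 from 4 to 120 h. Of the 8 markers 1, Atp6v0d2, fell with adiponectin, by -0.91 ± 0.43 (limma adjusted p = 0.00346, lower in 5 of 5 pairs). T and NK cell markers summed to 3239 to 4797 in adiponectin cultures and 2858 to 5407 in control cultures. On the log2 scale that sum differed by -0.55, -0.18, -0.09, 0.48 and 0.58 from 4 to 120 h. It weighs most on its brightest markers, Cd4 and Nkg7, and the Nkg7 difference went from -0.88 at 4 h to 2.33 at 120 h. Of these 8 markers 0 rose and 0 fell with adiponectin, against 2.05% and 0.371% of all genes. Cd3e and Cd3g were higher in 5 of 5 pairs and Cd3d in 0 of 5. Cd8a differed by 0.28, 0.18, 0.63, -0.095 and -0.11 from 4 to 120 h. The NK cell markers were Ncr1, at 0.21, -0.58, 0.02, -0.05 and 0.84, and Klrb1c, at -0.005, 0.05, 0.36, 0.15 and 0.42. The part of T and NK cells in the late Gzmb values was not tested.

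**Figure D5:**
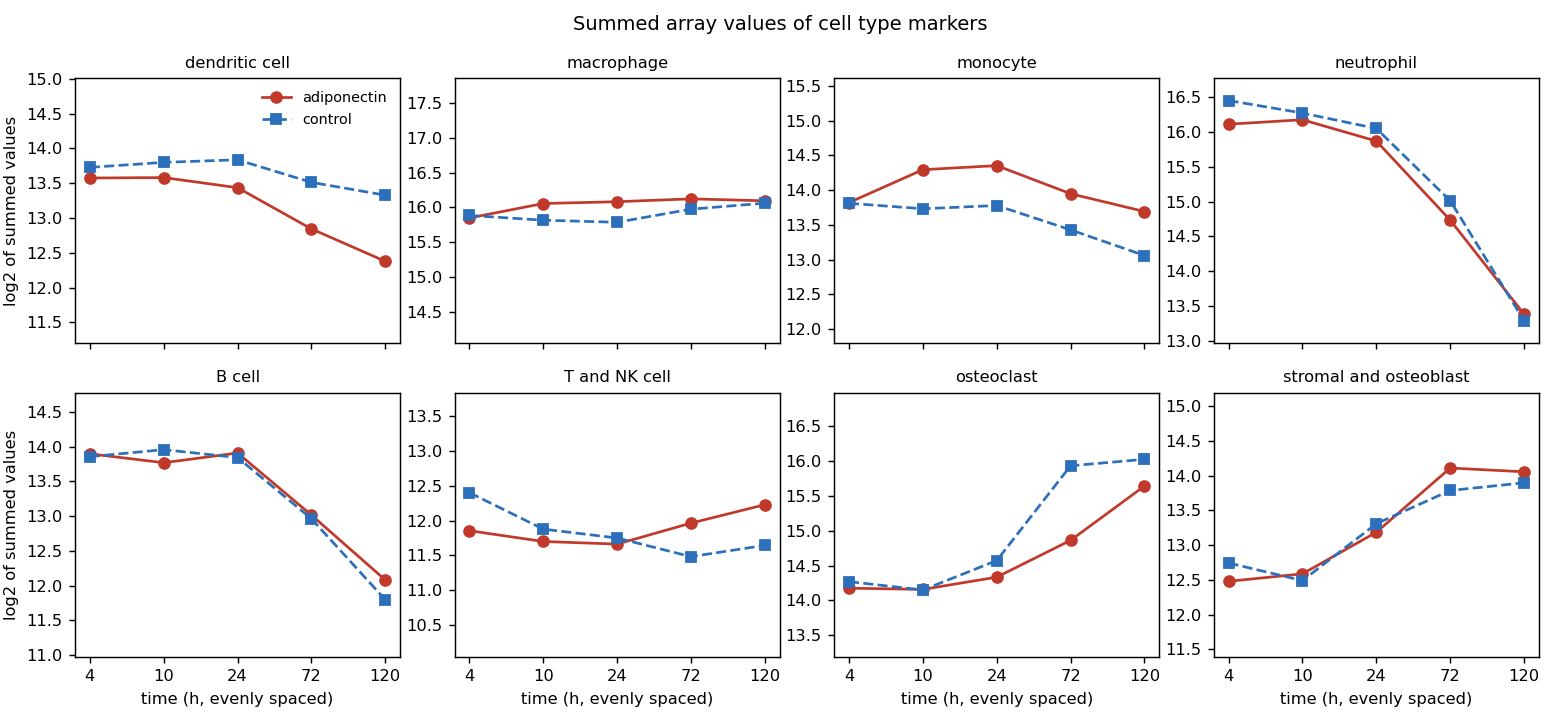
Log2 of the summed linear array values of 8 marker lists against time in hours (evenly spaced), circles for adiponectin cultures and squares for control cultures, 1 array per point, axes of equal span. Neutrophil and B cell sums were lower at 72 and 120 h in both groups, and the dendritic cell sum was lower in adiponectin than in control cultures at every time.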

How the data were processed

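Members, gene lists and tests were chosen with earlier results of these data known. The deposited values are log2 expression, 1 per probe set and array (35556 probe sets, 10 arrays). Affymetrix Expression Console, Partek and RMA, a method that corrects background, quantile-normalizes arrays and summarises probes, are named per the submitters' processing notes. Their versions and order, and the build, were not given in the sources used here. Of the probe sets, 21789 carried 1 gene symbol in the platform table, and the probe set with the highest mean stood for each of 19938 genes. Quantile normalization in RMA removes much of any shift shared by most transcripts. Array medians were 8.27 to 8.48; the number of arrays limits precision. Tests used limma 3.58.1 in R 4.3.3 (lmFit, eBayes, two-sided, Benjamini-Hochberg over all genes, threshold 0.05) without a filter on dim genes. The treatment effect was fitted with time point as a block (4 residual degrees of freedom), which pairs each treated culture with the control of its time, as the labels give it; pair differences correlated across genes at 0.111 to 0.639 between pairs. Treatment by log2 hours was added for the change with time (3), and slopes on log2 hours within each group were fitted without a block (6). The tests were checked on simulated data. Named genes were all members and, in each list, up to 6 members past the threshold and the 2 largest differences that were not, plus Ifng, Tbx21, Il17a, Il17f, Il12rb2 and Il27ra, added after their values were seen. Alternatives were scaling, filters on dim genes, probe set averages, an intensity trend, time coding, no block, leaving out each time, and the early or late times alone. Some genes of the lists are not reported here.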

Additional observations from a re-analysis of the deposited data

Results flagged for a closer look

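The Ebi3 difference at 120 h, 0.877 on the log2 scale, lay apart from the other 4 differences of that gene (0.29 to 0.42) by more than Dixon's 95% limit for 5 values. Of 15 groups of 5 values looked at, it was the only one past that limit. Chance alone puts about 1 group in 20 past it, so 1 such group among 15 is unremarkable.

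Il23a was higher in adiponectin cultures in all 3 pairs of 4 to 24 h and lower in both pairs of 72 and 120 h. The difference between the phases was -0.623 on the log2 scale, and it did not pass the test (limma adjusted p = 0.327).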

How the results depend on the processing

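Il27 kept its direction and stayed short of the threshold for the adiponectin effect in all 15 alternatives, and Il12b and Ebi3 kept their direction in all 14 and 15 they could enter. In every alternative 0 members fell with adiponectin. Both rises remained called after repeated quantile normalization and after centring arrays. Il12b was not called with an intensity trend and robust prior (0.88; limma adjusted p = 0.0905), without a replicate block (0.88; 0.109) or at 72 and 120 h alone (0.23; 0.201). Ebi3 was not called without a replicate block (0.47; 0.345, or 0.173 with log2 hours as a covariate) or at 4, 10 and 24 h alone (0.37; 0.165). Thus 1 member was called with the trend, with log2 hours instead of the block, in either phase alone, and among genes above the median level, which leaves out Il12b by construction; 0 were called with no block or covariate. Leaving out 1 time gave 0 to 2 called members, Il12b at 0.69 to 1.04, Ebi3 at 0.37 to 0.51 and Il12a at -0.059 to 0.14 (below 0 without 4 h or 72 h). Il12a turned to -0.053 at 4 to 24 h alone, and Il23a to -0.11 and Tnfaip3 to -0.0053 at 72 and 120 h alone. Over the named genes that are no members and the 4 subunit comparisons together, 330 values kept call and direction, 55 lost the call and 10 gained it. The subunit comparisons could not pass in any setting. Irf1, Irak3, Cxcl9 and Cd274 kept their calls throughout, while the other 9 named rises outside the family lost theirs with no block or covariate. In 1 phase alone, Gzmb (2.85), Prf1 (0.89), Stat4 (0.87) and Il11 (0.80) passed at 72 and 120 h, and Cd40 (1.40) and Tnfaip3 (0.68) at 4 to 24 h.

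In the fit of change over time, Il12a ran from -0.080 to 0.089 and Ebi3 from -0.0042 to 0.12 with 1 time left out, and Il12a was at 0.20 between phases. The fall of Il12a over time passed in adiponectin cultures after quantile normalization (-0.37; limma adjusted p = 0.0410), centring (-0.37) and either filter on dim genes (-0.36), and in control cultures after quantile normalization (-0.36), centring (-0.36) and the filter at the median level (-0.34), giving 1 member down in each. With 1 time left out the slopes of Il12a were -0.43 to -0.33 and -0.52 to -0.25 in adiponectin and control cultures, with 0 to 2 and 0 to 1 members down. In adiponectin cultures Il12b was then at -0.24 to -0.12 and Ebi3 at -0.032 to 0.057; in control cultures Il23a was at 0.082 to 0.15, Il27 at -0.015 to 0.027, and 0 to 1 members rose. Centring took Il27 to -0.0083 in control cultures. The contrast of 2 phases, added after the data were seen, called 2 members down in adiponectin cultures (Il12a at -1.37, Il12b at -0.80; Ebi3 turned to -0.10), and 1 down (Il12a, -1.57) and 1 up (Il23a, 0.48) in control cultures.

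Over all genes, 408 rose and 74 fell with adiponectin. The falls were 113 after quantile normalization, 117 with the trend, 46 without 10 h, 21 without 24 h, 43 at 4 to 24 h alone, 184 at 72 and 120 h alone, 4 without the block and 30 with log2 hours; the rises were 146 without the block and 233 at 4 to 24 h alone. Changes with time numbered 0, but 2 up and 3 down with the trend and up to 1 without a time. Slopes up and down numbered 827 and 689 in adiponectin cultures (23 and 15 without 120 h, 63 and 50 without 72 h, 431 down without 4 h, 320 down without 10 h) and 925 and 888 in control cultures (5 and 17 without 120 h, 6 and 27 without 72 h, 1476 up without 4 h, 413 up without 10 h, 1559 down after centring, 605 up above the median level). Some of these fits hold fewer arrays or genes, and the cause of the changes was otherwise not tested. Signal over background was not given, which limits what can be read from the genes of low array values. Both filters on dim genes left out Il23a, Il23r and Il6, and the filter at the median level also left out Il12b, Il10, Gzmb and Prf1. In control cultures Il12b lay above 28.4% of genes at 10 h and 34.4% at 72 h, its lowest and highest standing.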
